A study of Mus musculus with 12 samples.

Results

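The transcription factors that build and maintain the B lymphocyte lineage were followed in the spleens of mice carrying an active Sleeping Beauty transposon system. The set held 10 genes, Pax5, Ebf1, Tcf3, Foxo1, Bcl11a, Pou2f2, Pou2af1, Spib, Bach2 and Bcl6, taken by their symbols from a table of 32121 genes. All 10 were present. They were chosen by name and function, with earlier results of these data known. The first group, called SB, was 3 mice labelled as carrying VEC-Cre, the SB transposase and the onc2 transposon. VEC-Cre is a Cre recombinase driven by the vascular endothelial cadherin promoter, so recombination starts in endothelium, including the embryonic endothelium from which blood stem cells arise. Sleeping Beauty is a cut-and-paste DNA transposase, and onc2 is a mutagenic transposon that can disrupt or activate genes where it lands, so that each animal carries its own insertions. The second group was 3 mice labelled WT. Both groups are labelled C57BL/6. The sources used here do not state ages. From each spleen 2 pieces were sequenced, which gives 12 libraries. The study's question was how clonal each spleen is as a whole, read from the likeness of its pieces.

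B cell fate is set by a small network of nuclear proteins. E2A, the basic helix-loop-helix protein encoded by Tcf3, and Foxo1, a forkhead protein, switch on Ebf1, and Ebf1 switches on Pax5, which holds cells to the B fate and represses genes of other lineages. Bcl11a, a zinc finger protein, is needed at the earliest B cell stage and is also a silencer of fetal globin in red cells. In mature B cells Oct2, encoded by Pou2f2, and its coactivator OBF-1, encoded by Pou2af1, act at octamer sites, while Spi-B, an ETS protein encoded by Spib, works beside PU.1 downstream of the B cell receptor. Bach2 and Bcl6 are repressors that hold back plasma cell differentiation, and Bcl6 is the master regulator of the germinal centre. The normal spleen is rich in mature follicular and marginal zone B cells.

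The promoters of the 4 members with the steepest falls are shown because these genes moved together, each from 250 bases before to 50 after the RefSeq start, read 5′ to 3′ on the gene's strand. Coordinates here are those of GRCm38.p6, and those of genes further on are GRCm38. The Pax5 promoter lies at chr4:44710645-44710944 (minus strand), the first Ebf1 promoter at chr11:44617850-44618149 (plus strand), the Spib promoter at chr7:44532022-44532321 (minus strand) and the Pou2af1 promoter at chr9:51213440-51213739 (plus strand). Capitals mark matches to the 6 motifs named after the sequences.
Pax5: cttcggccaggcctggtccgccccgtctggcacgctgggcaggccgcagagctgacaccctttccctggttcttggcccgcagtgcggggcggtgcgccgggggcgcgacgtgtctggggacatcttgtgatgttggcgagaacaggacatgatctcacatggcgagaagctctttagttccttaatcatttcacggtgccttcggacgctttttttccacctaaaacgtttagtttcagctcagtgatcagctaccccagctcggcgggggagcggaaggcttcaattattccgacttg
Ebf1: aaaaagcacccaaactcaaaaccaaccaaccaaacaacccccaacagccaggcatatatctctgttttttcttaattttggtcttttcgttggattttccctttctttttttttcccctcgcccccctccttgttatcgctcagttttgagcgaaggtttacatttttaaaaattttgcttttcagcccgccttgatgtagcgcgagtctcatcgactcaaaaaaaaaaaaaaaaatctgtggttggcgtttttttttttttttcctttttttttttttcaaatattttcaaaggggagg
Spib: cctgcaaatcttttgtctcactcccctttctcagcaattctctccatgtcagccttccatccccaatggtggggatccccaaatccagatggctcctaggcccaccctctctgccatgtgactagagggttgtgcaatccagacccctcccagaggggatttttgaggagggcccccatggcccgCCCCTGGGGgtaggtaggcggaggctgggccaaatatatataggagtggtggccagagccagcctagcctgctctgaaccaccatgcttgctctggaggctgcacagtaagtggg
Pou2af1: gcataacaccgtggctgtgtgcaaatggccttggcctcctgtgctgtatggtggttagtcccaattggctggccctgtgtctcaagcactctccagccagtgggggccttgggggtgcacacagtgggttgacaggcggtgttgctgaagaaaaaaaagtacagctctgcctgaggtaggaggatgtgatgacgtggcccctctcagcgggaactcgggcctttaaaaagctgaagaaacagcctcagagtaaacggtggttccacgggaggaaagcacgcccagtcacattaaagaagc

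Both strands were searched for the octamer ATGCAAAT, the EBF core CCCNNGGG, the E-box CAGGTG, the PU.1-type ETS site GAGGAAG, the FOXO site GTAAACA and the AP-1-type site TGACTCA, which Bach proteins also bind. Of these 4 windows the Spib promoter held a match, a pair of overlapping EBF cores from 65 to 57 bases before the start. The EBF core occurs in 13.7% of the 32851 RefSeq promoters of this length. Of the other members, Foxo1 held an EBF core 91 to 84 bases before its start, and the first Bcl6 promoter held the PU.1-type site 191 to 185 bases before its start, a motif found in 13.6% of all promoters. The octamer, the E-box, the FOXO site and the AP-1-type site, present in 1.74%, 20.2%, 3.65% and 5.20% of all promoters, were not found in these windows of the 10 members, Ebf1 and Bcl6 having a pair of windows each. A match is a match of letters and not a site of binding.

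Libraries held 14320833 to 22031026 counts, with 22268 to 23767 genes detected. Animals were compared on the summed counts of both pieces, in CPM, the counts scaled by library size after TMM correction for library composition. The SB animals stood apart from each other, with 12575 genes unequal between the 3 spleens, against 99 between the 3 WT spleens. Mature B cell marker genes, 12 such as Cd79a and Ms4a1, had summed levels of 186, 233 and 78.5 CPM in the spleens of SB animals 1, 2 and 3, against 8913, 10049 and 9944 CPM in those of WT animals 1, 2 and 3, and none of the 12 was at 0 in all SB animals. Of the 12 markers, 11 fell, with a median log2 change of −6.66, and Cd180 did not pass the test (−2.15, adjusted p = 0.0830). SB animal 2 stood apart in its macrophage and monocyte markers, which summed to 1137, 13269.9 and 1246 CPM in the SB animals, against 2348, 2639.7 and 2782 CPM in the WT animals. Xist RNA, made from the inactive X chromosome, reached 2216 CPM in SB animal 1 and 994 CPM in SB animal 2. SB animal 3 had 1.66 CPM and the WT animals 2.46 CPM or less. The Y-linked Ddx3y was at 0.0509 to 0.361 CPM in libraries of SB animals 1 and 2. It was at 73.4 to 117 CPM in those of SB animal 3 and at 57.6 to 79.8 CPM in WT libraries. By these RNAs SB animals 1 and 2 were female and the others male, so sex and genotype cannot be fully told apart.

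In SB spleens 6 of the 10 factors fell and none rose. The 6 were Pax5, Spib, Ebf1, Pou2af1, Foxo1 and Bcl6, and the median log2 change of all 10 members was −2.64, beside a median of 0.11 over the 17328 genes tested. All 10 members passed the filter on low counts. Of all genes tested, 9.75% were called lower in SB and 8.59% higher, with edgeR's quasi-likelihood test at a Benjamini-Hochberg adjusted p under 0.05. In 8 of the 10 members all 6 SB libraries lay below all 6 WT libraries, a pattern of 16.6% of all genes tested, and only Tcf3 and Bach2 overlapped between the groups. These are bulk measurements of spleen, in which fewer cells of a type and less RNA per cell cannot be told apart. With 3 animals a group, the p-values weigh the difference between the groups against the spread between these animals. The test takes that spread as equal in both groups, though the SB animals stood further apart from each other than the WT animals.

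**Figure D1:**
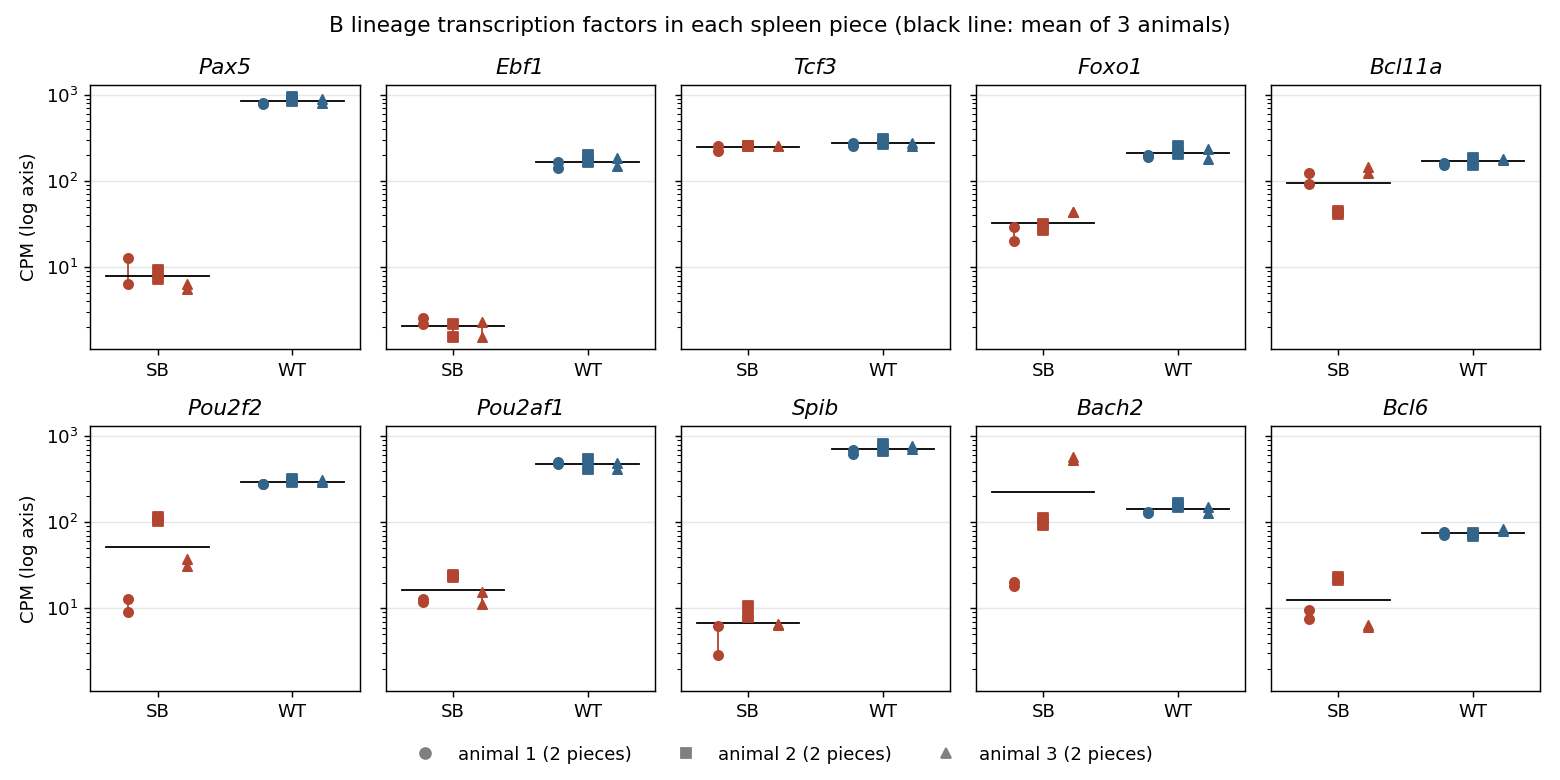
CPM of the 10 B lineage transcription factors in each spleen piece, on a log axis, with SB libraries in red to the left of WT libraries in blue, the marker shape giving the animal and the black line the mean of 3 animals. Pax5, Ebf1, Spib and Pou2af1 lie far lower in all SB libraries, Tcf3 overlaps between the groups, and Bach2 spreads from 18.2 to 582 CPM among SB libraries.

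The factors at the head of the cascade split. Tcf3 (ENSMUSG00000020167, chr10:80409514-80433647, minus strand) had like levels in both groups. Tcf3 had 233, 258 and 254 CPM in SB animals 1, 2 and 3, against 268, 289 and 266 CPM in WT animals 1, 2 and 3. The SB and WT libraries overlapped, though each SB animal lay slightly below each WT animal. The log2 change of −0.11 (SE 0.14, adjusted p = 0.603) did not pass the test. SB animals held 84.9%, 94.0% and 92.5% of the WT mean. E2A is made in many blood cell types besides B cells.

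Ebf1 (ENSMUSG00000057098, chr11:44617317-45008091, plus strand), the pioneer factor of the lineage, was among the 4 genes that fell most. Ebf1 had 2.33, 1.80 and 1.93 CPM in SB animals 1, 2 and 3, against 153, 187 and 169 CPM in WT animals 1, 2 and 3. The groups were wide apart: the SB libraries ran from 1.53 to 2.58 CPM with a median of 2.18, and the WT libraries from 141 to 204 CPM with a median of 167. The log2 change was −6.36 (SE 0.21, adjusted p = 0.000312), and the mean CPM of the SB animals was 84.0-fold lower than that of the WT animals. The SB values rest on 84, 60 and 80 counts in the 3 animals, so they are less precise than those of the more abundant members.

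Pax5 (ENSMUSG00000014030, chr4:44524757-44710487, minus strand), the commitment factor, fell by 6.74 on the log2 scale (SE 0.27, adjusted p = 0.000371), and its mean CPM was 109.7-fold lower in SB. Pax5 had 9.12, 8.18 and 6.00 CPM in SB animals 1, 2 and 3, against 801, 901 and 855 CPM in WT animals 1, 2 and 3. No SB library reached the lowest WT library: the SB libraries ran from 5.62 to 12.8 CPM with a median of 6.86, and the WT libraries from 788 to 949.7 CPM with a median of 827. The SB animals kept 1.07%, 0.959% and 0.705% of the WT mean, from 329, 272 and 249 counts. Pax5 exons overlap 2 genes of the opposite strand, Gm12462 over 125 bases and 5730488B01Rik over 636 bases, and in unstranded libraries their reads cannot be told apart from those of Pax5. 5730488B01Rik averaged 0.0654 ± 0.0486 CPM in SB and 3.87 ± 0.398 CPM in WT (SD, n = 3 animals each).

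Foxo1 (ENSMUSG00000044167, chr3:52268336-52353221, plus strand), which drives Rag and Il7r expression and lymphocyte homing genes, also fell, less steeply. Foxo1 had 24.7, 29.3 and 43.5 CPM in SB animals 1, 2 and 3, against 195, 231 and 210.4 CPM in WT animals 1, 2 and 3. All SB libraries were below all WT libraries, with SB animal 3 the highest of the SB animals. The log2 change was −2.68 (SE 0.25, adjusted p = 0.00371), and SB animals kept 11.6%, 13.8% and 20.5% of the WT mean.

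Bcl11a (ENSMUSG00000000861, chr11:24078056-24174123, plus strand) did not pass the test. Bcl11a had 109, 43.9 and 135 CPM in SB animals 1, 2 and 3, against 158, 171 and 179.9 CPM in WT animals 1, 2 and 3. SB animal 2 was the lowest, with 25.9% of the WT mean, while SB animals 1 and 3 kept 64.0% and 79.6%. The libraries of both groups did not overlap, but the log2 change of −0.79 (SE 0.40, adjusted p = 0.211) was small beside the spread between SB animals. Bcl11a shares 316 exon bases with the antisense gene 4930538E20Rik, which was at 0.418 CPM in SB and 1.26 CPM in WT on average.

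Of the factors of the mature B cell, Spib and Pou2af1 fell and Pou2f2 was not called. Spib (ENSMUSG00000008193, chr7:44525993-44532071, minus strand), whose promoter is printed above, dropped by 6.71 on the log2 scale (SE 0.36, adjusted p = 0.000932), and its mean CPM was 107-fold lower in SB. Spib had 4.38, 9.20 and 6.49 CPM in SB animals 1, 2 and 3, against 657, 744 and 748 CPM in WT animals 1, 2 and 3. Spib was the most abundant member per kilobase in WT spleens, and the SB libraries ran from 2.87 to 10.7 CPM with a median of 6.49, and the WT libraries from 625.2 to 808 CPM with a median of 699.8. Its level in the SB animals was 0.612%, 1.28% and 0.906% of the WT mean.

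Pou2af1 (ENSMUSG00000032053, chr9:51213708-51240080, plus strand) had a log2 change of −4.82 (SE 0.33, adjusted p = 0.00199), and its mean CPM was 28.8-fold lower in SB. Pou2af1 had 12.3, 23.9 and 13.5 CPM in SB animals 1, 2 and 3, against 492, 479.6 and 457 CPM in WT animals 1, 2 and 3. SB animal 2 was the highest of the SB animals at 5.02% of the WT mean, and the others kept 2.57% and 2.83%. No SB library overlapped the WT libraries.

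Pou2f2 (ENSMUSG00000008496, chr7:25087344-25179726, minus strand), the partner of OBF-1, was uneven between SB animals. Pou2f2 had 10.6, 110.5 and 34.028 CPM in SB animals 1, 2 and 3, against 279, 308 and 303 CPM in WT animals 1, 2 and 3. The SB libraries all lay below the WT libraries, yet SB animal 2 kept 37.2% of the WT mean while SB animal 1 kept 3.58% and SB animal 3 kept 11.5%. The log2 change of −2.49 (SE 0.79, adjusted p = 0.0800) did not pass the test. Without SB animal 2 it was −3.70 (adjusted p = 0.0103), and with DESeq2 it was −2.50 (adjusted p = 0.00790). Of the SB animals, SB animal 2 also had the highest sum of the 9 macrophage and monocyte markers given above and of the 9 plasmacytoid dendritic cell markers. The latter sums were 177, 616 and 233 CPM for SB animals 1, 2 and 3, against 860.1, 978 and 959 CPM for the WT animals. It was likewise the highest SB animal for mature B cell markers (186, 233 and 78.5 CPM) and T cell markers (40.9, 152 and 27.9 CPM). The same held for plasma cell, germinal centre, neutrophil, erythroid and proliferation markers, but not for pro-B, megakaryocyte and endothelial markers. Of the 9 macrophage markers 1 was called higher and none lower. Of the 9 plasmacytoid dendritic cell markers 4 were called lower and none higher. Ly6d, 1 of these 4, made up most of the WT sums of that list, at 457 to 760 CPM in WT libraries. It had 12.7 and 7.79 CPM in the pieces of SB animal 2. Siglech of the same list was not called (log2 change −0.98, adjusted p = 0.645). Siglech had 26.4 and 30.5 CPM in the pieces of SB animal 2 and 13.9 to 31.6 CPM in WT libraries. No marker of the macrophage or plasmacytoid dendritic cell list was at 0 in all SB animals. The part of any of these cell types in the Pou2f2 level was not tested.

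Among the repressors of plasma cell fate, Bcl6 (ENSMUSG00000022508, chr16:23965052-23988852, minus strand) had a log2 change of −2.60 (SE 0.50, adjusted p = 0.0214). Bcl6 had 8.48, 22.3 and 6.27 CPM in SB animals 1, 2 and 3, against 74.9, 72.2 and 82.1 CPM in WT animals 1, 2 and 3. All SB libraries were below all WT libraries, and SB animal 2 was again the highest of the SB animals, with 29.2% of the WT mean against 11.1% and 8.21% in SB animals 1 and 3. The call was lost when any 1 WT animal was left out, with adjusted p of 0.0797, 0.0818 and 0.0870 without WT animals 1, 2 and 3, though the log2 change stayed between −2.65 and −2.56. Bcl6 shares 21 exon bases with Gm37419 on the opposite strand, which was at 0.0930 CPM in WT.

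Bach2 (ENSMUSG00000040270, chr4:32238804-32586108, plus strand) went apart from the rest of the set. Bach2 had 19.0, 102 and 558 CPM in SB animals 1, 2 and 3, against 129.6, 159 and 140.2 CPM in WT animals 1, 2 and 3. Both pieces of SB animals 1 and 2 lay below all WT libraries and both pieces of SB animal 3 above them all, so the groups overlapped. SB animal 3 had 391% of the WT mean, from 23131 counts, whereas SB animals 1 and 2 had 13.3% and 71.3%. The fitted log2 change of 0.69 (SE 1.04, adjusted p = 0.672) did not pass the test and stands for no single animal: without SB animal 3 it was −1.21 (adjusted p = 0.279). Both pieces of SB animal 3 were high, at 535 and 582 CPM. The antisense gene Bach2os shares 537 exon bases with Bach2. Bach2os had 0.139, 3.43 and 2.51 CPM in SB animals 1, 2 and 3, against 0.334, 0.888 and 1.05 CPM in WT animals 1, 2 and 3. The summed level of the 7 megakaryocyte markers was 3248, 1148 and 4550.4 CPM for SB animals 1, 2 and 3, against 643, 569 and 262.3 CPM for the WT animals. Of these markers 4 were called higher, none was at 0 in all SB animals, and their part in the Bach2 level was not tested.

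**Figure D2:**
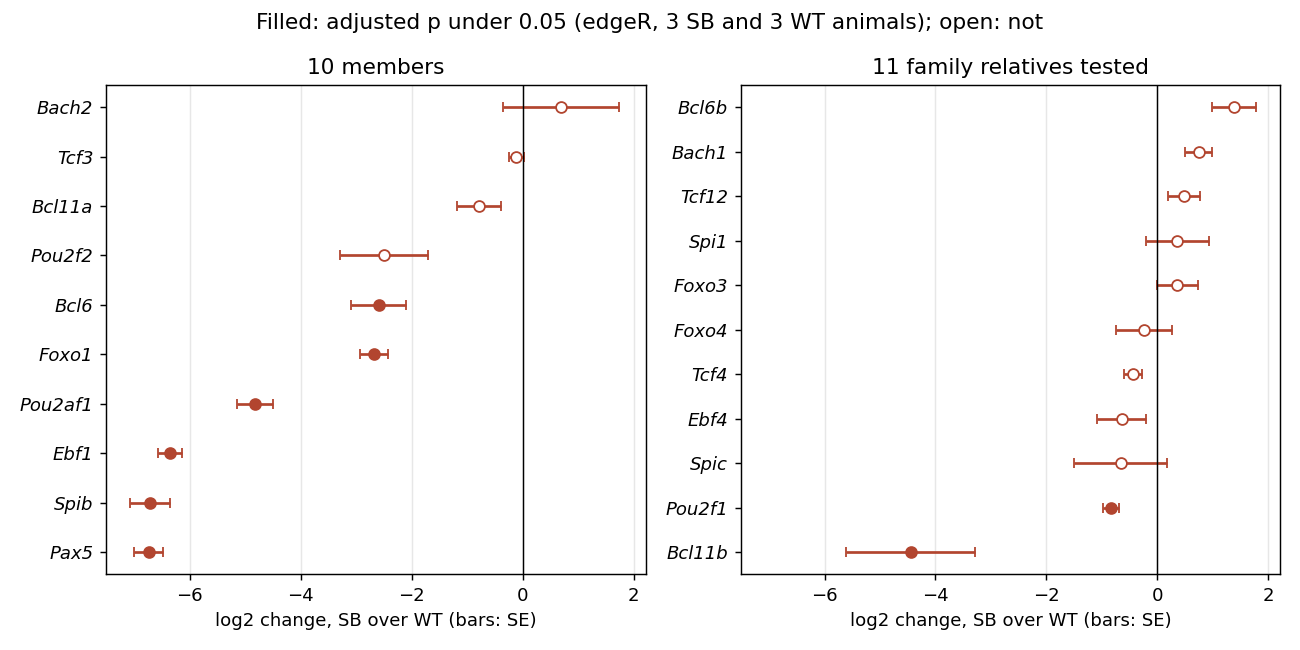
Log2 change, SB over WT, of the 10 members (left) and of the 11 family relatives that passed the filter on low counts (right), with bars of 1 SE, filled where the adjusted p was under 0.05. Of the members 6 are filled and to the left of 0, and of the relatives only Bcl11b and Pou2f1 are filled.

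The size of each gene's transcripts was set aside by dividing CPM by the kilobases of its merged exons. On this scale the order of levels in WT spleens was Spib at 249.7 CPM per kb, Pou2af1 at 187, Pax5 at 96.3, Tcf3 at 68.0, Pou2f2 at 36.0, Foxo1 at 24.5, Ebf1 at 17.4, Bach2 at 14.4, Bcl11a at 12.9 and Bcl6 at 11.4. Neighbours in this WT order did not overlap between animals down to Ebf1, and Ebf1 and Bach2, Bach2 and Bcl11a, and Bcl11a and Bcl6 did. In SB spleens the order was Tcf3 at 61.5 CPM per kb, Bach2 at 22.8, Bcl11a at 7.27, Pou2af1 at 6.49, Pou2f2 at 6.27, Foxo1 at 3.75, Spib at 2.33, Bcl6 at 1.84, Pax5 at 0.877 and Ebf1 at 0.207. Among the SB animals only Tcf3 stood clear of its lower neighbour, and Ebf1 of its upper one, while Bach2 ran from 1.91 to 56.1 CPM per kb. Tcf3, below Spib, Pou2af1 and Pax5 in WT, was the most abundant member in SB, and Spib and Pax5 moved toward the bottom of the order.

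Each factor was also set against the B cell genes of the same spleen, as log2 CPM minus the median log2 CPM of the 12 mature B cell markers. Since SB and WT differ in those markers themselves, these values are a description with no test. Pax5 and Spib had like values in both groups: Pax5 was at 0.04 in SB and 0.08 in WT, and Spib at −0.22 in SB and −0.18 in WT. Ebf1 was at −1.86 in SB and −2.26 in WT, with SB animals on both sides of WT. The other 7 factors were higher against the B cell genes in every SB animal than in every WT animal, as were 99.5% of the 17328 genes tested, since the B cell genes themselves fell so far, and nothing particular to the 7 is read from it. Pou2af1 was at 1.08 in SB and −0.76 in WT, Pou2f2 at 2.19 in SB and −1.45 in WT, and Bcl6 at 0.50 in SB and −3.40 in WT. Foxo1 was at 2.07 in SB and −1.93 in WT, Bcl11a at 3.52 in SB and −2.25 in WT, Bach2 at 3.77 in SB and −2.50 in WT, and Tcf3 at 5.04 in SB and −1.56 in WT.

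**Figure D3:**
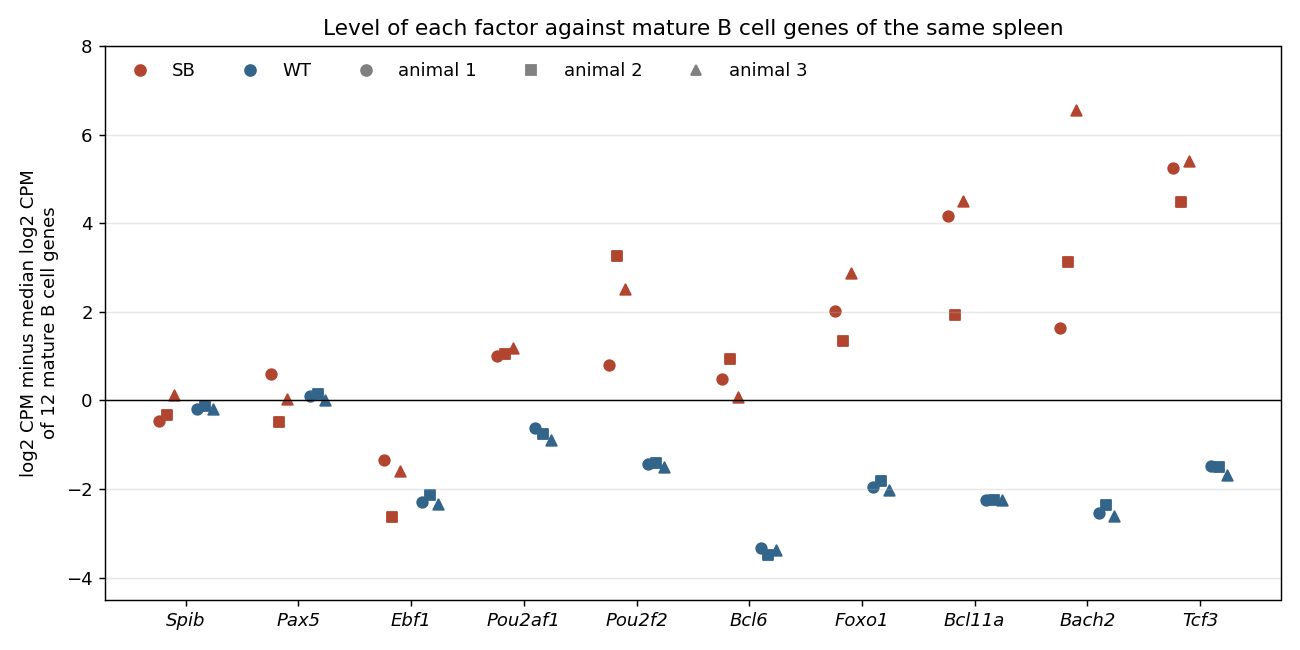
Log2 CPM of each factor minus the median log2 CPM of 12 mature B cell genes of the same spleen, both pieces summed, for SB animals (red, left) and WT animals (blue, right), with marker shapes for animals 1 to 3. Spib and Pax5 lie near 0 in both groups, Ebf1 overlaps, and the other 7 factors lie higher in all SB animals, as do 99.5% of all genes tested.

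Genes with the pattern most like each factor were ranked by Pearson's r of log2 CPM over the 12 libraries, among protein-coding genes. This is a description, and the libraries share the large gap between groups and the pairing of pieces. Among the genes most like Pax5 were Dtx1 (r = 0.998) and Siglecg (r = 0.998). Ebf1 was most like Cacna1i (r = 0.999), Klhl14 and Pax5. Spib was most like Cxcr5 (r = 0.999), Ms4a1 and Cd79a, and Pou2af1 was most like S1pr3 (r = 0.999), Fcrla and Gimap6. Foxo1 was nearest to Traf3ip2 (r = 0.996), Fgd3 and Arhgap26. Pou2f2 was nearest to Evl (r = 0.996), Mpzl3 and Bin1, and Bcl6 to Pkib (r = 0.997), Arhgap30 and Mrtfa. Bcl11a was nearest to S1pr4 (r = 0.986), Esyt1 and Fbxl14. Bach2 had Rpl29 (r = 0.992), Cst7 and Ptgir nearest. Tcf3, which changed least, had its nearest at only r = 0.870 (Fam32a), followed by Them4 and Smim20.

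Relatives of the factors were mostly not called. Of 15 family relatives 13 were in the table, 11 passed the filter, 2 fell and none rose, with a median log2 change of −0.24. Bcl11b, the T cell counterpart of Bcl11a, was at 0.638, 6.91 and 0.386 CPM in the SB animals, against 59.0, 53.7 and 63.0 CPM in the WT animals, with a log2 change of −4.45 (SE 1.17, adjusted p = 0.0489). Of 11 T cell markers, a list that holds Bcl11b itself, 8 fell, Bcl11b among them, and none was at 0 in all SB animals. Their sums, Bcl11b included, were 27.9 to 152 CPM in the SB animals and 875 to 1017 CPM in the WT animals. Pou2f1, which encodes the widely made Oct1, fell with a log2 change of −0.83 (SE 0.15, adjusted p = 0.0157). Pou2f1 had 34.9, 32.7 and 38.8 CPM in SB animals 1, 2 and 3, against 62.0, 64.4 and 67.0 CPM in WT animals 1, 2 and 3. Pou2f1 shares 3007 exon bases with Cd247, a T cell gene of the opposite strand that had a log2 change of −3.59 (adjusted p = 0.0270), and reads of the shared bases cannot be told apart.

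The E2A relatives Tcf4 and Tcf12 had log2 changes of −0.44 (adjusted p = 0.113) and 0.48 (adjusted p = 0.278). PU.1, encoded by Spi1 and the myeloid relative of Spi-B, had 0.36 (adjusted p = 0.688), and Spic, the factor of red pulp macrophages, had −0.66 (adjusted p = 0.612). Foxo3 and Foxo4 had 0.36 (adjusted p = 0.533) and −0.24 (adjusted p = 0.768). Bach1 had 0.74 (adjusted p = 0.0866), Bcl6b 1.38 (adjusted p = 0.0598) and Ebf4 −0.64 (adjusted p = 0.335). Ebf3 and Pax8 did not pass the filter, and Ebf2 and Pax2 were not among the counted genes.

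The proteins that restrain or assist the factors were mostly not called. Of the 4 Id proteins, which trap E proteins away from DNA, only Id3 fell. Id3 had 13.3, 11.002 and 17.5 CPM in SB animals 1, 2 and 3, against 138, 135 and 132 CPM in WT animals 1, 2 and 3. Its log2 change was −3.24 (SE 0.22, adjusted p = 0.00181). Of 8 corepressors used by Bcl6, Pax5 and other repressors, only Tle4 fell, with a log2 change of −0.86 (adjusted p = 0.0224). The medians of the Id and corepressor lists were −0.31 and −0.12.

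Many genes known to be activated by the factors fell too. The lists of targets were taken from general knowledge with earlier results of these data known, so their direction is not independent evidence. Of 15 targets of Pax5 and Ebf1, 11 fell and none rose, with a median log2 change of −5.37. Cd79a, which encodes a signalling chain of the B cell receptor, averaged 10.7 ± 2.90 CPM in SB and 1064 ± 102 CPM in WT (SD, n = 3 animals each). The complement receptor gene Cr2 had a log2 change of −7.73 (adjusted p = 0.000312), the IgE receptor gene Fcer2a −7.79 (adjusted p = 0.000312) and Cd79a −6.61 (adjusted p = 0.000539). Of 10 targets of Foxo1, 9 were tested, 7 fell and none rose, with a median of −3.09. Ccr7, the lymph node homing receptor, had −5.77 (adjusted p = 0.000312), S1pr1 −3.09 (adjusted p = 0.00476) and Klf2 −2.99 (adjusted p = 0.0117). These Foxo1 targets are also made by T cells, of whose markers 8 of 11 fell, and the part of T cells in these values was not tested.

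Of 6 targets of Oct2 and OBF-1, 2 fell, Spib itself and the chemokine receptor gene Cxcr5, with a log2 change of −6.60 (adjusted p = 0.00108), and the list's median was −2.23. The other 4 were not called: Cd36 had 0.51 (adjusted p = 0.338), S1pr2 0.73 (adjusted p = 0.149), S1pr4 −1.32 (adjusted p = 0.204) and Crisp3 −3.13 (adjusted p = 0.188). These 4 are named because their values were seen to differ from those of Spib and Cxcr5.

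Genes that Pax5 or Bcl6 are known to silence did not move together. Of 11 genes silenced by Pax5, 1 rose and 1 fell, with a median log2 change of −0.15. The riser was Mpo, the myeloperoxidase of early granulocytes, at 3.22 (adjusted p = 0.0290), and the gene that fell was the T cell gene Cd28, at −3.40 (adjusted p = 0.0438). Markers of neutrophils and promyelocytes, Mpo among them, summed to 662, 2468 and 1245 CPM in the SB animals, against 375, 235 and 127 CPM in the WT animals, with 4 of 10 called higher and none at 0 in all SB animals. Of 10 genes silenced by Bcl6, the cell cycle inhibitor gene Cdkn1a rose and the plasma cell factor gene Irf4 fell, with a median of −0.63. Cdkn1a had 183, 74.9 and 68.2 CPM in SB animals 1, 2 and 3, against 8.44, 8.55 and 8.39 CPM in WT animals 1, 2 and 3. The log2 changes were 3.72 (adjusted p = 0.00679) for Cdkn1a and −3.72 (adjusted p = 0.0394) for Irf4.

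Among 23 other regulators of B cells 22 were tested, 9 fell and 2 rose, with a median log2 change of −0.81. Foxp1, a forkhead factor of mature B cells, had −2.32 (adjusted p = 0.00336), and Lef1, a Wnt pathway factor of early B and of T cells, had −5.97 (adjusted p = 0.00472). The NF-kappaB subunit gene Relb had −2.32 (adjusted p = 0.00603) and Nfatc1 −1.86 (adjusted p = 0.00916). The 2 that rose were Runx1, at 0.83 (adjusted p = 0.0249), and Zeb2, at 1.40 (adjusted p = 0.0374), both also factors of stem and myeloid cells, named here after their values were seen.

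Markers of B cell stages were set beside the factors. Of 7 pro-B and pre-B cell markers 4 were tested, and Rag1 (−4.21, adjusted p = 0.0148) and Il7r (−3.00, adjusted p = 0.0361) fell while Cd93, which endothelial and progenitor cells also make, rose at 2.44 (adjusted p = 0.00955). Rag1 was near 0 throughout, at a mean of 0.0253 CPM in SB and 0.571 CPM in WT, and Vpreb1, a surrogate light chain gene of early B cells, did not pass the filter, at 0.153 CPM in SB and 0.113 CPM in WT. Of 6 germinal centre markers tested, 2 fell and none rose, Rgs13 among them (−7.10, adjusted p = 0.00715). Rgs13 had no count in SB animals 1 and 3, so its SB level rests on SB animal 2 alone, at 0.144 and 0.0509 CPM in its pieces. Of 8 plasma cell markers 3 fell and none rose, Mzb1 at −4.26 (adjusted p = 0.0203), Tnfrsf13b at −2.78 (adjusted p = 0.0229) and Irf4. Immunoglobulin transcripts took 0.136% to 0.837% of counts in SB libraries and 2.23% to 3.20% in WT libraries. Of 10 proliferation markers 8 rose and none fell, and of 10 erythroid markers 5 rose and none fell. The erythroid markers, which include globin genes, nevertheless summed to 3368, 36959.7 and 4779 CPM in the spleens of SB animals 1, 2 and 3, against 44809, 35528 and 20979 CPM in those of WT animals 1, 2 and 3, with Hbb-bs at a log2 change of −1.60 (adjusted p = 0.445) and Hba-a1 at −1.09 (adjusted p = 0.596).

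The SB animals differed from each other in most of the factors. In an F test of equal levels across the 3 SB animals, 7 of 10 members were called, where 70.8% of all 17758 genes tested were called, a share near that of the members. The adjusted p was 9.15e-11 for Bach2, 7.76e-09 for Pou2f2, 3.09e-07 for Bcl6, 3.55e-06 for Bcl11a, 0.000375 for Pou2af1, 0.00546 for Foxo1 and 0.0132 for Spib. Pax5, Ebf1 and Tcf3 did not pass the test (adjusted p of 0.0893, 0.438 and 0.579). With SB animal 2 left out, 4 members were called between the other SB animals. The numbers of all genes called in such fits are given at the end, and nothing particular to the members is read from this count. Across the 3 WT animals 0 members were called, and 0 had an unadjusted p under 0.05, where 0.557% of all genes were called, and DESeq2 also called 0. Their error is the spread between pieces of the same spleen, so they compare these spleens only.

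The pieces of each spleen were compared next. The labels number the pieces 1 and 2 in both groups but give no place in the spleen, so nothing shows that equal numbers mark equal places across animals or genotypes, and the sign of a piece difference rests on the numbering. With the animal as a block, 0 of 10 members differed between piece 2 and piece 1 by edgeR, where 3.05% of the 15523 genes tested were called, a share near that of the members. Unadjusted p was under 0.05 for 3 members, Ebf1 (log2 change −0.26, adjusted p = 0.0785), Foxo1 (−0.25, adjusted p = 0.0701) and Pou2af1 (−0.21, adjusted p = 0.0829), and DESeq2 called 2, Ebf1 (−0.27, adjusted p = 0.0469) and Foxo1 (−0.26, adjusted p = 0.0344). Without SB animal 1, Ebf1 was called by edgeR (−0.31, adjusted p = 0.0325). The difference between pieces was tested for inequality between the genotypes, and 0 of 10 members were called, where 1.37% of genes were, under the same numbering of pieces. Pou2f2 was the 1 member with an unadjusted p under 0.05 there, and DESeq2 called 0 members.

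In WT spleens piece 2, titled B, was lower than piece 1, titled A, in all 10 factors of all 3 animals, 30 of 30 differences, from −0.37 to −0.013 in log2 CPM. A difference below 0 in all 3 WT animals was found in 28.2% of the genes tested, and within WT animals 0 members were called where 9.75% of genes were. The mature B cell markers were lower in piece B too, with a median difference of −0.25, −0.41 and −0.24 in WT animals 1, 2 and 3. Globin transcripts took 6.15%, 6.20% and 3.76% of counts in piece B, against 4.54%, 2.37% and 1.78% in piece A. Their part in the difference was not tested. In SB animals 20 of 30 differences were below 0, from −0.57 to 1.11, and the share over all genes was not worked out for them. Within SB animals 0 members were called, where 1 of 15523 genes was. The largest SB differences were those of Spib, at 1.11, and Pax5, at 1.00, in SB animal 1. There the mature B cell markers had a median difference of 0.58.

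**Figure D4:**
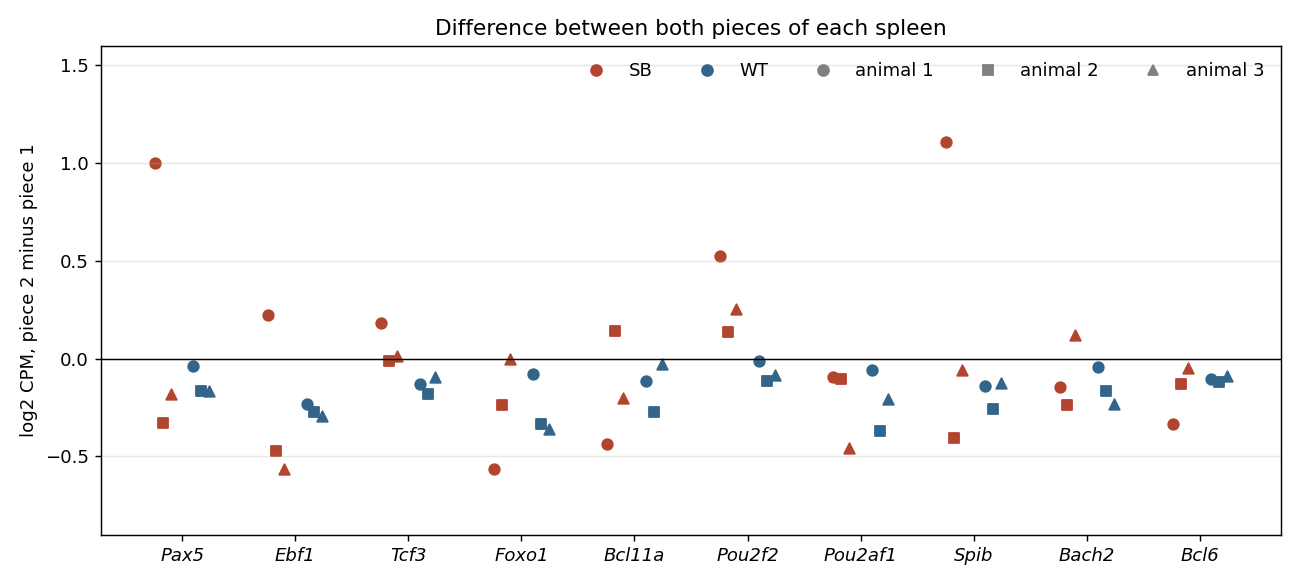
Log2 CPM of piece 2 minus piece 1 for each factor, with SB animals in red to the left of WT animals in blue and marker shapes for animals 1 to 3. WT points lie between −0.37 and −0.013 and SB points between −0.57 and 1.11, the highest being Pax5 and Spib of SB animal 1.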

How the data were processed

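Per the labels' protocols, the 12 spleen pieces gave poly-A libraries without strand information. The authors deposited raw read counts, whole numbers for each Ensembl gene, as the values themselves show. The submitters' processing notes list STAR 2.5.3a, limma, mm10 and GRCm38 without their roles. The sources used here do not state how reads were counted or which annotation release was used. Of 32121 genes, 32026 matched GENCODE M21 on GRCm38, which gave symbols, coordinates and exon lengths. The 95 unmatched stayed in the fits. Promoters are from RefSeq for GRCm38.p6.

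Replicates are animals. For genotype, counts of both pieces were summed. The animal named in the titles pairs both pieces, so piece tests used the animal as a block. No label pairs an SB with a WT animal. Pieces 1 and 2 are as the labels number them (A and B in WT titles). No library was a repeat deposit: between pieces of 1 spleen, chi-square per degree of freedom was 6.09 to 41.6 (genes of 20 counts or more).

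Tests used edgeR 4.0.16 in R 4.3.3 (TMM, filterByExpr, robust quasi-likelihood, two-sided, Benjamini-Hochberg over all genes). They were also run on simulated data, where the spread between animals was equal in both groups and smaller than in the genotype fit. That run does not show their error rates in these data. SE is the log2 change over the root of F. DESeq2 1.42.0 and limma 3.58.1 voom were alternatives, as were other scalings, no filter, single pieces, left-out animals and the low-Xist animals. Log2 CPM carries a prior count of 2. The members and lists were chosen with earlier results of these data known. Named were all members and relatives, up to 4 called genes per list with the smallest adjusted p, and the 3 genes most correlated with each member. Results of a few genes that these rules name are not reported here.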

Additional observations from a re-analysis of the deposited data

Results flagged for a closer look

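Tcf3 in piece 1 of SB animal 1, at 223 CPM, lay apart from the other SB libraries, which ran up to 257 CPM, by Dixon's criterion for the lowest of 6 values. Of 20 groups of libraries tested this way, chance alone sets apart about 1 in 20.

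The Pou2f2 piece difference had opposite signs in the genotypes. No label gives the place of a piece in the spleen, so the opposition rests on the numbering of the pieces. Piece 2 was higher than piece 1 in all 3 SB animals, by 0.52, 0.14 and 0.26 in log2 CPM, and lower in all 3 WT animals, with differences of −0.013, −0.12 and −0.08. The test of the difference itself, SB minus WT, gave 0.35 (SE 0.11, unadjusted p = 0.00937, adjusted p = 0.132 by edgeR), which did not pass the threshold.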

How the results depend on the processing

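Of 160 member values over 16 alternatives to the genotype comparison, 149 kept their direction and side of the threshold, 6 newly passed it, 3 no longer did and 2 changed sign. Pax5, Ebf1, Spib, Pou2af1 and Foxo1 were called in every alternative with more than 1 SB animal. The number of members called there followed that of all genes. It was 5 with any 1 WT animal left out, where 554 to 818 genes were called. It was at most 7, reached with DESeq2, with voom (3170 genes called) and without SB animal 2. Bach2 changed sign with voom (−0.43), and its change ran from −1.21 to 1.23 with 1 animal left out. Genes called numbered 5631 with DESeq2 and 11788 with the low-Xist animals, where SB animal 3 alone is assumed to vary like WT. They numbered 554 to 6409 with 1 animal left out (818, 554 and 636 without WT animals 1, 2 and 3, 6409 without SB animal 2), and 2961 with edgeR's earlier quasi-likelihood method, chosen after seeing the data. Between pieces, genes called numbered 1213 with DESeq2, 0 with no replicate block and 0 to 413 with 1 animal left out. Members called there numbered 2 with DESeq2 and 0 to 1 with 1 animal left out. The Pax5 piece change, near 0, was 0.0024 with DESeq2, 0.054 with no replicate block and −0.16 to 0.039 with 1 animal left out. For unequal piece changes, genes called numbered 514 with DESeq2, 0 with no replicate block and 0 to 544 with 1 animal left out, and members 0 in all 10 alternatives. Between SB animals, genes called ran from 8109 to 9697 and members from 4 to 8 with 1 animal left out. Between WT animals genes called were 337 with DESeq2 and 19 to 356 with 1 animal left out. Fits with animals left out also rest on fewer samples, and the cause of these changes was not tested. Depth limits Ebf1, Pax5 and Spib in SB animals, where 60 to 329 counts stand behind a value. Bcl6 rests on 306, 742 and 260 counts in SB animals 1, 2 and 3.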
